A study of Rattus norvegicus with 32 samples.

Results

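The P1 thymic clones are cultures of rat thymic epithelial cells (TECs) that were taken at postnatal day 1 (P1) and grown from single colonies. The members were chosen by their labels alone. They are 6 of the 32 arrays of the series and 3 of its 16 cultures, with 2 arrays per culture. PRP1cl11_VII was never grafted. Clone_57 was recovered after a first transplantation into skin, and Clone_194 after a second, so 4 grafted arrays stand against 2 ungrafted ones. All donors were Sprague-Dawley rats that express enhanced green fluorescent protein under an actin promoter (act-EGFP), and grafted cells were taken back from the skin of nude mouse recipients by dissecting grafts with fluorescent hair follicles. Every culture was grown on irradiated mouse 3T3-J2 fibroblasts as a feeder layer.

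Each of the 3 states is thus represented by 1 clone. The labels give the clones different names and do not tie Clone_57 or Clone_194 to PRP1cl11_VII. No P1 clone that was re-cultured without grafting is used here. Grafting, the identity of the clone, the recovery from skin and the new round of culture therefore cannot be told apart, and neither can the second transplantation and the identity of Clone_194. The labels also do not say that the 2 arrays of a culture came from separate dishes, so the arrays were averaged per culture and the spread between arrays may be purely technical. The remaining cultures came from thymus of embryonic day 16 (E16, 5 cultures), from thymus at 4 months (4 cultures, 3 of them bulk) and from hair follicles labelled P5 (4 cultures).

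Thymic epithelium arises from the endoderm of the pharyngeal pouches, under transcription factors such as Pax1 and Pax9, and comes to depend on Foxn1 for its support of T cell development. It is unusual among endodermal epithelia in expressing keratins of both simple epithelia (Krt8, Krt18) and stratified epithelia (Krt5, Krt14), and its cells grow in culture much as epidermal keratinocytes do. Skin and its hair follicles are ectodermal, keep p63 and basal keratins, and turn on suprabasal keratins, calcium-binding proteins and galectin 7 as they stratify. The comparison asks how the expression of a P1 thymic clone differs once such cells have passed through skin.

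The promoters of the 3 genes on which the account turns are shown first. Gldc was the one gene past the test, and Krt8 and Lgals7 mark the simple and the stratified side of the comparison. The sequences are the 250 bases before the annotated start in RefSeq, genome build GRCr8, written 5′ to 3′ on the gene's strand, and capitals mark matches to any of the motifs searched. Gldc lies at chr1:237375605-237375854 on the minus strand, Lgals7 at chr1:93277524-93277773 on the plus strand and Krt8 at chr7:135010340-135010589 on the minus strand.
Gldc: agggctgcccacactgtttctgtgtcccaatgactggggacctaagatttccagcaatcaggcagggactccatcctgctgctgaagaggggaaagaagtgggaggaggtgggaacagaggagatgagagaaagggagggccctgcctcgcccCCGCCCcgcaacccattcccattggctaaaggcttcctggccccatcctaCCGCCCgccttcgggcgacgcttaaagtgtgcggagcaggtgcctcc
Lgals7: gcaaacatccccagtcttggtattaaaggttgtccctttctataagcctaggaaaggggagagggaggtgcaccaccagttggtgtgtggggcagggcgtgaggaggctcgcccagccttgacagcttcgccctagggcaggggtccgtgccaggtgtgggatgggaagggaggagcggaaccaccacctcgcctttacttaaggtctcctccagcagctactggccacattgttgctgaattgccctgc
Krt8: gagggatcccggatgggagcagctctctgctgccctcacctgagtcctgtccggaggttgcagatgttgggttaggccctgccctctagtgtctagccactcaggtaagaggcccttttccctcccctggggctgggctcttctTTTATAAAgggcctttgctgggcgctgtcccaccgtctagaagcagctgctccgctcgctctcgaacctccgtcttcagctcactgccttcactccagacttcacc

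The motifs searched, on both strands, were the AP-1 site TGANTCA, the AP-2 site GCCNNNGGC, the TATA box TATAAA and the GC box GGGCGG. The Gldc window held 2 GC boxes, which begin 97 and 47 bases before the start. The Krt8 window held a pair of overlapping TATA matches, 1 on each strand, at 106 and 104 bases, and the Lgals7 window held no match. A gene is called separated here where both grafted culture means differed from the ungrafted mean by at least 1 log2 unit in the same direction and all 4 grafted arrays lay beyond both ungrafted arrays. RefSeq promoters were found for 105 of the 128 separated genes that were higher in the grafted clones (0.882% of 14506 measured genes) and for 115 of the 156 that were lower (1.08%). An AP-1 match stood in 9.52% of the former and 10.43% of the latter, against 5.48% of the 11950 promoters of measured genes and 6.36% of all 27457 in the table. AP-2 matches stood in 18.1% and 19.13%, against 17.4% of measured genes and 13.05% of the table. TATA matches stood in 10.48% and 9.57%, against 11.24% and 13.09%, and GC boxes in 60.0% and 53.91%, against 47.35% and 32.39%. These shares describe letters in a window and were not tested.

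Levels are log2 signals, so 1 unit is a doubling. Array medians ran from 5.36 to 5.45 (log2 signal) in the 6 P1 arrays and from 5.29 to 5.78 over all 32. Across genes, the 2 arrays of a culture correlated at 0.997 in PRP1cl11_VII, 0.998 in Clone_57 and 0.998 in Clone_194. The root mean square difference over the 15310 named probe sets, a single measure of distance in log2 units, was 0.372 between Clone_57 and the ungrafted clone, 0.440 between Clone_194 and the ungrafted clone, and 0.258 between the grafted clones. The ungrafted clone lay 0.317 to 0.415 from the 3 ungrafted thymic cultures of other stages, a range that holds the distance to Clone_57 and lies below that to Clone_194. The mean of the 2 ungrafted hair follicle cultures lay 0.464 from the ungrafted P1 clone, 0.394 from Clone_57 and 0.405 from Clone_194. These distances to a mean are not on the same footing as those between single cultures.

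Markers of epithelium and of other cell types are given next. Krt14, the basal keratin, read 13.19 and 13.22 on the ungrafted arrays, 13.22 and 13.19 in Clone_57, and 13.01 and 13.12 in Clone_194, so the grafted and ungrafted arrays overlapped. Tp63, which encodes the p63 factor of stratified epithelia, read 9.02 in the ungrafted clone, 9.54 in Clone_57 and 9.77 in Clone_194. Ungrafted hair follicle cultures also read high for Krt14 (13.18 ± 0.12, SD, n = 2) and Tp63 (9.74 ± 0.50). Neither gene therefore tells thymic from follicle cultures. Foxn1 read 5.67 in the ungrafted clone, 5.89 in Clone_57 and 5.70 in Clone_194, and its difference of 0.13 ± 0.30 (SE) turned to -0.01 when the second ungrafted array was left out. These Foxn1 levels were no higher than in ungrafted hair follicle cultures (5.58 ± 0.63, SD, n = 2) by more than their spread, so this defining factor did not set the thymic clones apart. Markers of blood cells (18 measured genes), endothelium (12), melanocytes (6), nerve (9) and muscle (11) held no separated gene. In lists of this size that is near the shares of all genes (0.882% higher and 1.08% lower). The summed linear signal of the blood cell list was 375, 355 and 343 in PRP1cl11_VII, Clone_57 and Clone_194. Of those 18 blood cell genes, 11, 11 and 12 read under 4, a level not taken here as shown to be above background.

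Glycine decarboxylase (Gldc), a mitochondrial enzyme that breaks down glycine and feeds the folate cycle, fell in the grafted clones. It read 9.31 and 9.46 on the ungrafted arrays, 5.64 and 5.32 in Clone_57, and 4.87 and 5.01 in Clone_194. All 4 grafted values were below both ungrafted ones by more than 3 log2 units. The fall was -4.17 ± 0.34 (SE, 95% interval -4.92 to -3.43), or 18-fold, with a limma adjusted p = 0.00115. In cultures that hold more than 1 kind of cell, fewer cells of a kind and less RNA per cell cannot be told apart on arrays of bulk RNA. The ungrafted P1 clone read higher than the other ungrafted thymic cultures, which lay between 6.39 and 7.09, whereas Clone_57 and Clone_194 lay close to the other grafted thymic cultures (4.62 to 5.48) and to ungrafted hair follicle cultures (4.88 ± 0.18, SD, n = 2). Gldc passed in 36 of 37 alternative settings. It missed the threshold in a fit with 11 groups that set Clone_57 alone against the ungrafted clone (-3.90, limma adjusted p = 0.162), whereas with Clone_194 left out of the fit with 8 groups the same difference passed (limma adjusted p = 0.0149).

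Gldc was the only one of 15310 probe sets past the limma threshold (adjusted p under 0.05), which is 0.00653%, and 759 had an unadjusted p under 0.05. The single ungrafted P1 culture has no spread of its own and was assumed to vary as cultures of the other groups do, with 8 residual degrees of freedom. The count was 219 when the 32 arrays were the unit with the culture as a random block, and 209 with the array number as a further block. It was 224 in a fit on the 3 P1 cultures alone. Between 1 and 10 probe sets passed when single cultures or arrays were left out, with 10 without Clone_218, 7 without PRP4mo_bulk or PRP4mo_Cl09, 4 without Clone_287, 3 without Clone_217 or the second ungrafted P1 array, and 2 without the hair follicle cultures YR219P5_RC or Clone_54.

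The arrays themselves are described next. Each gene was read from its probe set of highest mean. By the rule given with the promoters, 128 of 14506 genes (0.882%) were higher and 156 (1.08%) lower in the grafted clones, with 35 and 44 of them at 2 log2 units or more. The difference was the larger one in Clone_194 for 89 of the 128 and 94 of the 156. No share over all genes is given for that count, so it has no background here. Over all named probe sets Clone_194 also lay farther from the ungrafted clone (root mean square 0.440 against 0.372 for Clone_57). Of the 128, 9 read under 4 in the ungrafted clone, and of the 156, 15 read under 4 in the mean of the grafted clones, so their differences are lower bounds. Over probe sets the count was 293, and it was 539 with Clone_194 as the only grafted culture and 354 with Clone_57 as the only one. The separation is a description with no test, and the members' counts are read against these background shares.

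**Figure D1:**
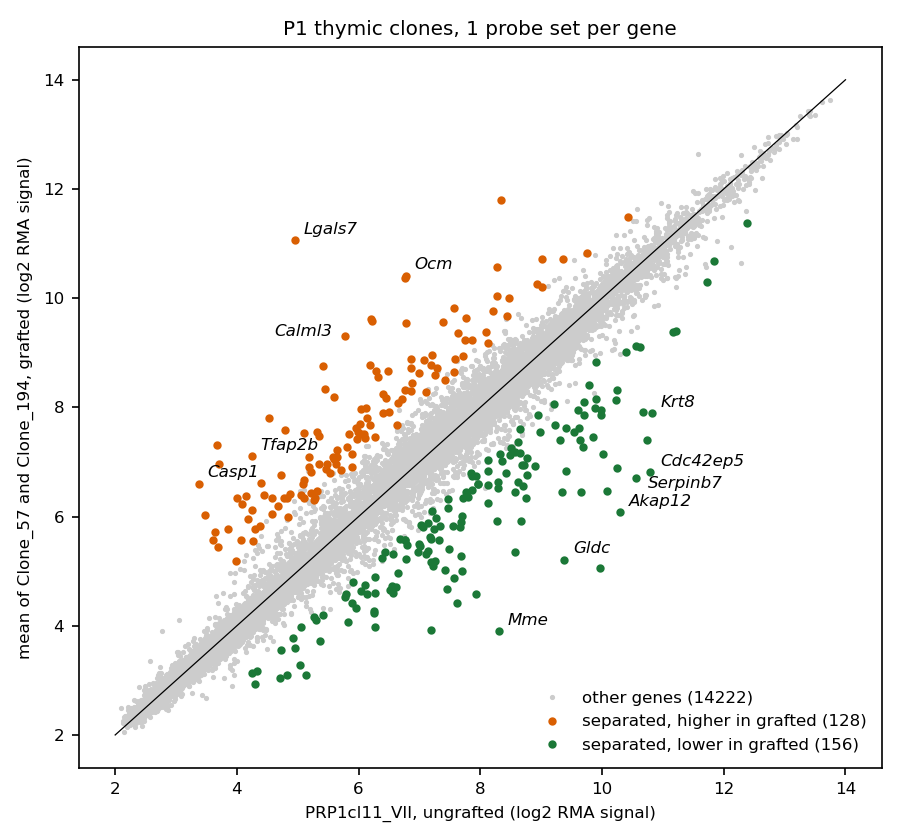
Level of each of 14506 genes in PRP1cl11_VII (x axis) and the mean of Clone_57 and Clone_194 (y axis), in log2 RMA signal, with the line of equal level. The 128 orange and 156 green points are the separated genes; Lgals7 lies farthest above the line, and Mme, Akap12 and Gldc lie far below it.

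The genes of smallest p among those lower in the grafted clones included a drug transporter, a pair of Cdc42 effectors and genes of coagulation. Slc47a1, a proton-coupled exporter of organic cations, read 7.69 and 8.16 on the ungrafted arrays, 4.68 and 4.72 in Clone_57, and 4.60 and 4.31 in Clone_194. Its difference of -3.35 ± 0.48 (SE) did not pass (limma adjusted p = 0.0601), although the groups were apart on every array. Cdc42ep5, an effector of the GTPase Cdc42 that shapes the actin and septin cytoskeleton, read 10.77 and 10.80 on the ungrafted arrays, 7.13 and 7.12 in Clone_57, and 6.49 and 6.51 in Clone_194. The 4 grafted arrays were over 3 log2 units below the ungrafted arrays, and the difference was -3.97 ± 0.73 (SE), with a limma adjusted p = 0.14. Its relative Cdc42ep2 read 7.56 in the ungrafted clone, 6.17 in Clone_57 and 5.48 in Clone_194, and here the ungrafted P1 clone stood above the other ungrafted thymic cultures (4.99 to 5.41). Tfpi, the inhibitor of tissue factor, differed by -3.26 and Procr, the receptor of protein C, by -1.34. Tfpi read 4.01 in Clone_57 and 3.83 in Clone_194, and the level in Clone_194 is not shown to be above background, so that clone's difference is a lower bound.

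The other genes of this group were lower by 1 to 2 log2 units on all 4 grafted arrays. Grb10, an imprinted adaptor that dampens insulin and IGF signalling, read 6.25 in the ungrafted clone, 4.36 in Clone_57 and 4.20 in Clone_194. Marcksl1, an actin-binding substrate of protein kinase C, differed by -1.65, Eno3, the muscle form of enolase, by -1.26, and Rell2, a member of the RELT family, by -1.10. Htr1f, a serotonin receptor, differed by -1.16 between 4.33 in the ungrafted clone and 3.11 and 3.23 in the grafted clones, which are not shown to be above background. None of these 5 passed the test, with limma adjusted p from 0.102 to 0.144.

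Among genes higher in the grafted clones, those of smallest p encode a transporter, secreted proteins and enzymes of lipid and protein turnover. Stc2, a secreted glycoprotein of the stanniocalcin family, read 7.32 and 7.43 on the ungrafted arrays, 9.78 and 9.73 in Clone_57, and 9.37 and 9.39 in Clone_194. The difference was 2.19 ± 0.31 (SE) with a limma adjusted p = 0.0601, just short of the threshold. Ccn2, the matricellular protein also known as connective tissue growth factor, read 8.25 and 8.29 on the ungrafted arrays, 10.54 and 10.52 in Clone_57, and 10.60 and 10.65 in Clone_194, and the grafted arrays lay close together. Enpp1, which makes pyrophosphate outside the cell, read 6.87 in the ungrafted clone, 8.64 in Clone_57 and 8.81 in Clone_194. Scd, the desaturase that makes monounsaturated fatty acids, read 8.27 in the ungrafted clone, 9.82 in Clone_57 and 10.27 in Clone_194, and Ctsh, the lysosomal protease cathepsin H, differed by 1.56 ± 0.29 (SE). Card6, a member of the caspase recruitment domain family, differed by 1.92 ± 0.30 (SE), and here the ungrafted clone (5.18) stood below all other thymic cultures (6.46 to 7.74).

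A few members of this group need care. Abcc4, an exporter of organic anions and cyclic nucleotides, has 3 probe sets: they differed by 1.35, 1.57 and 0.31, and the last of these, the brightest, was not separated. Fam133b likewise differed by 1.14 on one probe set and by -0.25 on the brighter one, so the probe sets disagreed in direction. Fmod, the collagen-binding proteoglycan fibromodulin, read 3.61 in the ungrafted clone, below the level shown to be above background, so that its difference of 1.96 is a lower bound. Irx4, a homeobox factor, differed by 1.47 ± 0.26 (SE), and its ungrafted arrays stood apart from each other (4.88 and 4.26).

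**Figure D2:**
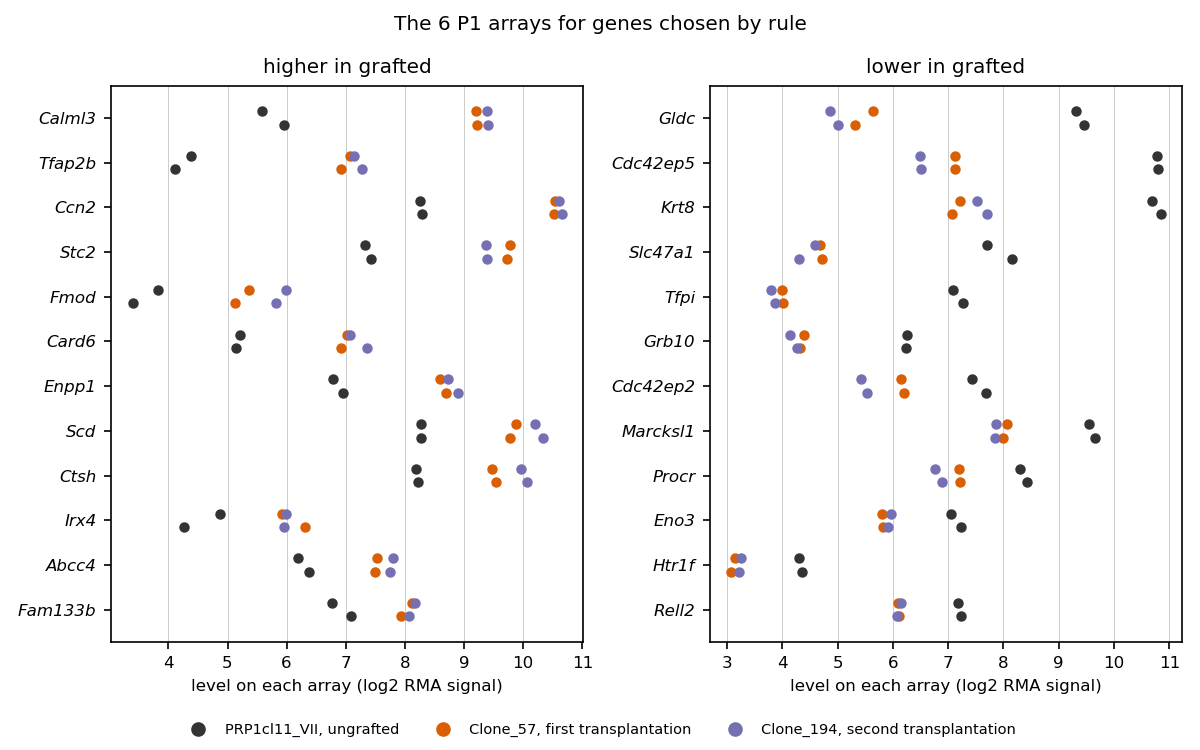
Level on each of the 6 P1 arrays (x axis, log2 RMA signal) for the 12 probe sets higher and the 12 lower in the grafted clones that the rule named; each dot is 1 array, upper and lower dots of a colour being arrays 1 and 2. For every gene the dots of Clone_57 and Clone_194 lie on the same side of both black dots; Gldc and Cdc42ep5 show the widest gaps on the right and Calml3 on the left.

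Krt7, Krt8, Krt18 and Krt19, keratins of simple epithelia, were lower in the grafted clones. Krt8 read 10.85 and 10.80 on the ungrafted arrays, 7.84 and 7.83 in Clone_57, and 7.97 and 7.93 in Clone_194. The grafted values of 7.89 ± 0.08 (SD, n = 2 cultures) left a difference of -2.93 ± 0.50 (SE) (limma adjusted p = 0.137), and a second probe set gave -3.38 ± 0.53 (SE) (limma adjusted p = 0.0992). Krt18, the partner of Krt8 in the filament, read 7.68 in the ungrafted clone, 5.33 in Clone_57 and 5.23 in Clone_194, and its dimmer probe sets differed by -1.41 and -0.37. Krt19 read 10.22 and 10.28 on the ungrafted arrays, 6.14 and 6.21 in Clone_57, and 7.47 and 7.73 in Clone_194, so the grafted clones also stood apart from each other there. Of the 16 measured genes of simple epithelia, 5 were separated, all of them lower (Krt7, Krt8, Krt18, Krt19 and the uroplakin Upk1b), against 1.08% of all genes, and 0 passed the test. Krt7 differed by -1.92. The list's median difference was -0.29, against -0.01 over all genes, and its other 11 members were not separated. All 4 grafted arrays were below both ungrafted ones for 8 members and above them for 3, against 17.2% and 18.7% of all genes. The largest difference on the higher side was 1.24.

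The grafted P1 clones had the lowest Krt8 of any grafted thymic culture. The grafted E16 cultures averaged 10.03 ± 0.71 (SD, n = 4) and the grafted 4-month cultures 9.48 ± 0.32 (SD, n = 2). Ungrafted hair follicle cultures averaged 6.89 ± 0.32 (SD, n = 2), still below Clone_57 and Clone_194. Serpinb7, an epidermal protease inhibitor that reads high in ungrafted thymic cultures, was likewise lowest, among grafted thymic cultures, in the P1 clones. It read 10.60 and 10.50 on the ungrafted arrays, 6.50 and 6.20 in Clone_57, and 7.09 and 7.07 in Clone_194, against 9.0 ± 0.52 in grafted E16 and 9.67 ± 0.32 in grafted 4-month cultures. The P1 difference was -3.84 ± 0.73 (SE), with a limma adjusted p = 0.15.

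**Figure D3:**
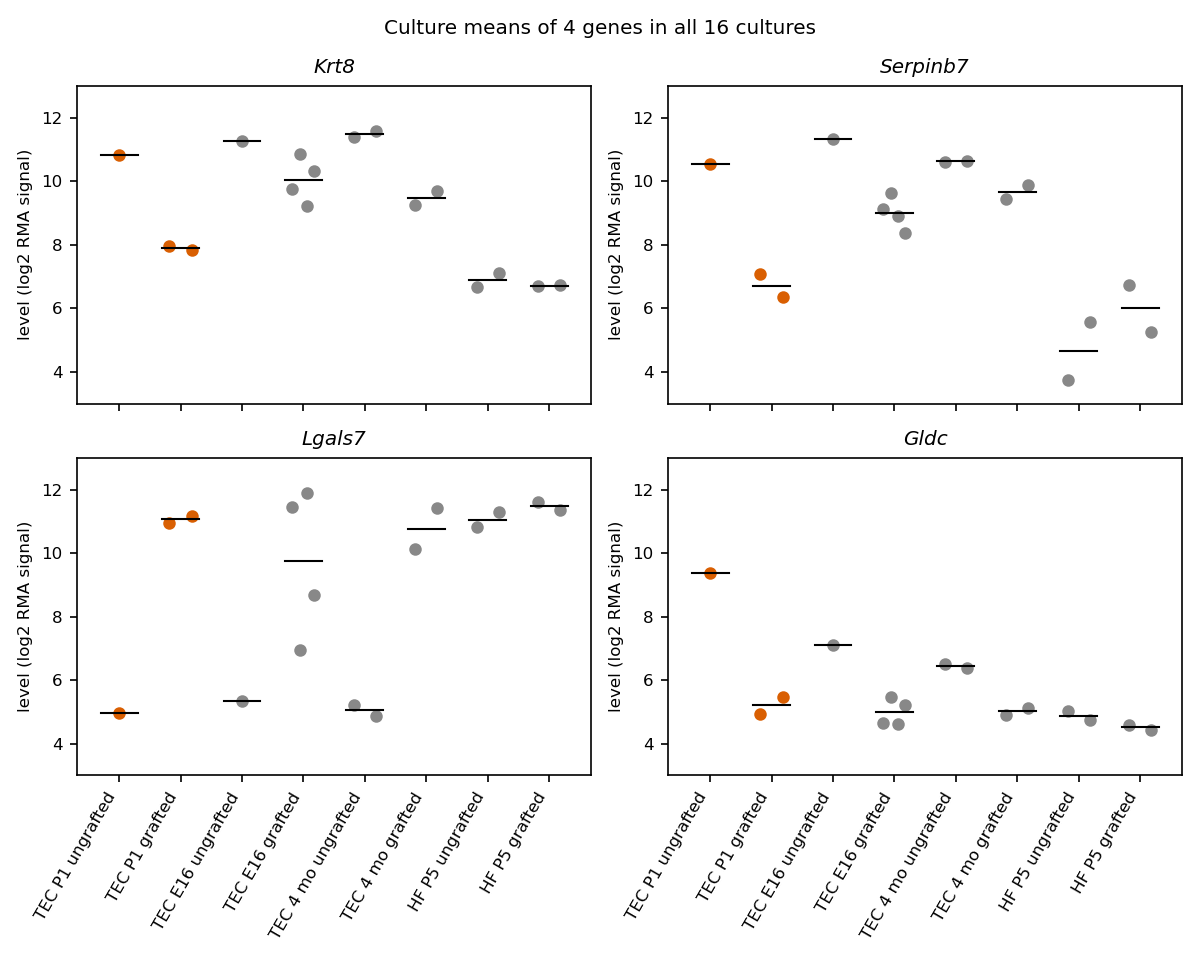
Culture means of Krt8, Serpinb7, Lgals7 and Gldc (y axis, log2 RMA signal) in all 16 cultures by group (x axis); each dot is 1 culture, the line is the group mean and P1 is in orange. The grafted P1 dots of Krt8 and Serpinb7 lie below all other thymic dots, and the ungrafted P1 dot of Gldc is the highest of the 16. Those of Lgals7 in the grafted P1 clones are near 11, close to the hair follicle cultures and within the range of the other grafted thymic cultures.

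Of the genes of the cornified envelope and epidermal differentiation, the separated ones were higher. Lgals7, which encodes galectin 7 of stratified epithelia, read 4.79 and 5.12 on the ungrafted arrays, 11.15 and 11.22 in Clone_57, and 10.91 and 10.97 in Clone_194. This was the largest difference of any gene, 6.11 ± 1.54 (SE), yet the spread of grafted E16 cultures (SD 2.35, n = 4) enters its error and it did not pass (limma adjusted p = 0.393). Lgals7 was also higher in grafted cultures at E16 (4.39) and 4 months (5.73), and the other grafted thymic cultures lay between 6.94 and 11.90. Calml3, a calmodulin-like protein of stratifying keratinocytes, read 5.58 and 5.96 on the ungrafted arrays, 9.21 and 9.22 in Clone_57, and 9.39 and 9.40 in Clone_194. Klk10, a kallikrein protease, read 5.42 in the ungrafted clone, 9.08 in Clone_57 and 8.42 in Clone_194. Of the 23 measured genes of this list, 4 were separated and higher (those 3 and cornifelin, Cnfn, at 1.19), against 0.882% of all genes, 0 were separated and lower, and the median was 0.15. All 4 grafted arrays were above both ungrafted ones for 9 members and below them for 5, against 18.7% and 17.2% of all genes. Without Clone_57, 1 member was separated and lower, against 1.84% of all genes in that setting.

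Of the separated keratins of stratified epithelia, 2 were higher and 2 lower. Krt1 and Krt10, the pair of the suprabasal epidermis, were both higher. Krt10 read 4.69 and 4.88 on the ungrafted arrays, 6.52 and 6.89 in Clone_57, and 8.45 and 8.46 in Clone_194, and Krt1 read 3.93 and 4.37 on the ungrafted arrays, 5.50 and 5.42 in Clone_57, and 7.24 and 7.37 in Clone_194. Both were well above the ungrafted clone in Clone_57 and higher again in Clone_194 by more than 1.5 log2 units. Krt4 and Krt13, the corresponding pair of internal stratified epithelia such as oesophagus, were both lower, by -1.69 and -1.51. These were the 4 separated genes of the 13 measured in the list, and its median was 0.11. Over all genes 0.882% were separated and higher and 1.08% lower. Krt12, the keratin of corneal epithelium, read 7.29 in the ungrafted clone, 8.83 in Clone_57 and 8.60 in Clone_194, while every other grafted thymic culture lay between 5.35 and 5.77. Ungrafted 4-month thymic cultures were also high for Krt12 (8.13 ± 0.61, SD, n = 2).

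Of 19 measured transcription factors of surface ectoderm, 12 were higher on all 4 grafted arrays, against 18.7% of all genes. Tfap2b, an AP-2 factor, read 4.38 and 4.12 on the ungrafted arrays, 7.08 and 6.92 in Clone_57, and 7.14 and 7.28 in Clone_194. The grafted P1 clones read close to ungrafted hair follicle cultures (7.68 ± 1.03, SD, n = 2), whereas every other thymic culture, grafted or not, lay between 4.10 and 5.22. Gata3, which acts in epidermis and the inner root sheath of the hair follicle, read 6.74 and 6.98 on the ungrafted arrays, 8.51 and 8.55 in Clone_57, and 9.18 and 9.28 in Clone_194. Bhlhe41, a repressor of the circadian system, read 3.70 in the ungrafted clone, 5.10 in Clone_57 and 5.78 in Clone_194, from a level not shown to be above background. Of these factors, 4 were separated and higher (with Pitx1 at 1.30) and 1, Dlx5, was lower (-1.32), against 0.882% and 1.08% of all genes. The median was 0.39. Of the 21 measured genes of hair follicle stem cells and placodes 0 were separated. In a list of this size that is near the shares of all genes. Lhx2, a factor of hair follicle stem cells, differed by 0.83 ± 0.76 (SE).

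Of the separated factors of the pharyngeal pouch, 3 were lower and 1 was higher. Pax1 read 7.08 and 7.41 on the ungrafted arrays, 5.42 and 5.10 in Clone_57, and 5.13 and 5.08 in Clone_194, and Pax9 read 8.62 and 8.68 on the ungrafted arrays, 7.63 and 7.42 in Clone_57, and 6.89 and 6.72 in Clone_194. Pax9 was lower in Clone_194 than in Clone_57, and both were below the lowest of the other grafted thymic cultures (7.87). Gata6, a factor of endodermal epithelia, read 6.77 in the ungrafted clone, 5.19 in Clone_57 and 5.26 in Clone_194. These 3 and Irx1, which was higher by 1.04, were the separated genes of the 12 measured, and the median was -0.15. Over all genes 1.08% were separated and lower and 0.882% higher. Isl1, another pouch factor, read 6.77 in the ungrafted clone, 6.43 in Clone_57 and 6.20 in Clone_194, and both grafted clones remained above hair follicle cultures (4.36 ± 0.27, SD, n = 2). The 21 measured genes of thymic epithelial function (median -0.03) and the 13 of MHC class II (median -0.07) held 0 separated genes. In lists of this size that is near the shares of all genes. Cd74, the invariant chain of MHC class II, differed by -0.74 ± 0.80 (SE).

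The urokinase system, hyaluronan synthesis and cell migration were the list with the most separated members. Of its 25 measured genes, 8 were separated and lower and 1 was higher (Nedd9, at 1.43), against 1.08% and 0.882% of all genes. All 4 grafted arrays were below both ungrafted ones for 17 (17.2% of all genes), and the median was -0.58. Has2, which makes hyaluronan at the plasma membrane, read 10.11 and 10.07 on the ungrafted arrays, 6.48 and 6.57 in Clone_57, and 6.42 and 6.39 in Clone_194. The grafted clones stood lower on every array, with a mean difference of -3.62 and a limma adjusted p = 0.74. Akap12, a scaffold of protein kinases A and C, read 10.34 and 10.27 on the ungrafted arrays, 5.90 and 5.87 in Clone_57, and 6.32 and 6.23 in Clone_194. Plaur, the urokinase receptor, read 10.23 in the ungrafted clone, 8.22 in Clone_57 and 8.05 in Clone_194. Its ligand Plau differed by -1.39, Has3 by -1.44, and F2rl2, a protease-activated receptor, by -2.76. Cdc42ep5 and Serpinb2, the plasminogen activator inhibitor of keratinocytes (-1.01), complete the 8. Plau, Has3, F2rl2, Serpinb2 and Nedd9 were named after their values were seen, to account for the whole count, as were Krt7, Krt13, Cnfn, Pitx1, Dlx5, Irx1, Thy1, Il1a, Ptgs2, Ptges, Slc22a18 and Gstm1 in their lists.

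Among 20 measured serpins 4 were separated, all lower, against 1.08% of all genes. Beside Serpinb7 and Serpinb2 they were Serpinb9, an inhibitor of granzyme B (-2.0), and Serpinb11 (-1.54). The median of the list was -0.12. All 4 grafted arrays were below both ungrafted ones for 8 serpins and above them for 2, against 17.2% and 18.7% of all genes. Mme, the membrane metallopeptidase neprilysin, read 8.13 and 8.49 on the ungrafted arrays, 4.33 and 4.16 in Clone_57, and 3.57 and 3.56 in Clone_194. Clone_194 was at a level not shown to be above background, as were the means of grafted 4-month and hair follicle cultures, so its difference of -4.40 is a lower bound.

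Some genes of the extracellular matrix that mesenchymal cells also express were lower. Sparc, a collagen-binding matricellular protein, read 10.63 and 10.72 on the ungrafted arrays, 7.10 and 6.88 in Clone_57, and 8.72 and 8.94 in Clone_194. Both grafted clones were below the ungrafted one, with Clone_57 lowest. Loxl1 and Lox, enzymes that cross-link collagen and elastin, differed by -3.21 ± 0.93 (SE) and -2.70 ± 1.04 (SE). Together with Thy1 (-1.68), a surface glycoprotein of fibroblasts, they were the 4 separated genes of 28 measured mesenchymal genes, against 1.08% of all genes. All grafted arrays were below the ungrafted ones for 12 of the 28 and above them for 2, against 17.2% and 18.7% of all genes. The summed linear signal of the list was 10654 in PRP1cl11_VII, 5670 in Clone_57 and 6625 in Clone_194, and 4, 3 and 4 members read under 4. The cultures grew on mouse fibroblast feeders, and the part of feeder RNA in these values was not tested.

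Of 18 measured integrins, laminins and hemidesmosome genes 1 was separated and higher, against 0.882% of all genes. This was Itgb8, an integrin chain that activates latent TGF-beta. It read 4.24 and 4.56 on the ungrafted arrays, 6.14 and 6.01 in Clone_57, and 6.99 and 7.34 in Clone_194. Clone_194 was over 1 log2 unit above Clone_57, and both lay within the wide range of the other grafted thymic cultures (4.27 to 7.78). Among 28 cell junction genes 1 was separated and higher and 1 lower, against 0.882% and 1.08% of all genes. They were Ceacam1 (1.72) and the desmosomal plakophilin Pkp2 (-1.12). Of 14 S100 calcium-binding genes 0 were separated, which in a list of this size is near the shares of all genes.

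The separated genes of inflammation and prostaglandin synthesis were lower, except for 1. Of 34 measured chemokines, cytokines and wound response genes, 5 were separated and lower and 1 higher, and the median was -0.19. With Clone_57 left out the number lower was 11, while the share of all genes separated and lower went from 1.08% to 1.84%. Csf3, the granulocyte colony-stimulating factor, read 8.68 and 8.46 on the ungrafted arrays, 7.13 and 6.80 in Clone_57, and 5.8 and 6.05 in Clone_194. Ptgs1, a cyclooxygenase, read 9.98 in the ungrafted clone, 8.76 in Clone_57 and 6.95 in Clone_194. The inducible cyclooxygenase Ptgs2 (-1.19), the prostaglandin E synthase Ptges (-1.07) and Il1a (-1.81) were the other lower members. Casp1, the protease that matures interleukin 1 beta, read 3.43 and 3.32 on the ungrafted arrays, 6.49 and 6.68 in Clone_57, and 6.61 and 6.63 in Clone_194. Its ungrafted level is not shown to be above background, so that its difference of 3.23 is a lower bound.

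Interferon-stimulated genes held 3 separated members of 34 measured, all lower, against 1.08% of all genes: Samd9l (-2.29), Usp18 (-1.76) and Isg15 (-1.19). Samd9l read 3.98 in Clone_57 and 3.99 in Clone_194, levels not shown to be above background, so its difference is a lower bound. The list's median was -0.04, and 9 members had all grafted arrays above the ungrafted ones and 11 had all below, against 18.7% and 17.2% of all genes. Without Clone_57 the number separated and lower was 6, against 1.84% of all genes in that setting. The 16 measured genes of MHC class I and antigen processing had a median of -0.29 with 9 members lower on all 4 grafted arrays, against 17.2% of all genes. None of them was separated, and without Clone_57 4 were separated and lower, against the same 1.84%. Gpr15lg, the ligand of the receptor GPR15 that recruits T cells to epithelia, read 8.29 and 8.38 on the ungrafted arrays, 11.74 and 11.76 in Clone_57, and 11.84 and 11.89 in Clone_194. Its ungrafted level exceeded those of the other ungrafted thymic cultures (5.88 to 6.27).

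The separated genes of signalling pathways stand against 0.882% of all genes separated and higher and 1.08% separated and lower. A count of 0 in lists of this size is near those shares. Of 34 BMP and TGF-beta genes, 21 Notch genes and 15 EGF family genes 0 were separated, with medians of -0.04, -0.01 and -0.01. Without Clone_57 the BMP and TGF-beta list held 2 separated higher and 4 lower, against 1.75% and 1.84% of all genes in that setting. Of 32 Wnt genes 2 were separated, Wnt5a (-1.14) and the secreted Dkk3 (-1.10), both lower, and 1 of them was when arrays were centred on their medians. Among 14 genes of insulin-like growth factor signalling, the binding proteins went in opposite directions. Igfbp2 read 7.56 in the ungrafted clone, 9.94 in Clone_57 and 9.68 in Clone_194, and Igfbp3 read 9.64 in the ungrafted clone, 7.80 in Clone_57 and 7.01 in Clone_194, while Grb10, the third separated member, was lower.

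Imprinted genes, whose expression depends on the parent of origin, held 3 separated and lower members of 21 measured, against 1.08% of all genes. Beside Grb10 they were Snurf, which read 8.25 and 8.34 on the ungrafted arrays, 6.65 and 6.78 in Clone_57, and 6.28 and 6.41 in Clone_194, and Slc38a4, an amino acid transporter, which read 10.02 and 10.01 on the ungrafted arrays, 6.42 and 6.24 in Clone_57, and 7.91 and 8.05 in Clone_194. Slc38a4 was lowest in Clone_57 and Snurf in Clone_194. One member, Slc22a18, was higher by 1.02, and it was not separated after a new quantile normalization or when any 1 of 3 arrays was left out. The median was -0.26, with 9 members lower and 3 higher on all 4 grafted arrays, against 17.2% and 18.7% of all genes.

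Among metabolic genes, those of lipid synthesis lay mostly on the higher side. Of 28 measured genes of fatty acid, triglyceride and sterol synthesis, 20 had all grafted arrays above the ungrafted ones, 4 had all below, and the median was 0.29. Over all 14506 genes the arrays lay all above for 2715 (18.7%) and all below for 2499 (17.2%). Scd was the 1 separated member. The retinoid list had 3 separated and higher members of 18, against 0.882% of all genes, with a median of 0.01. They were Cyp26b1, which breaks down retinoic acid (1.45), Stra6, which takes up retinol (1.44), and Lrat, which esterifies it (1.22, from 3.98). All grafted arrays were above the ungrafted ones for 4 retinoid genes and below them for 6, against 18.7% and 17.2% of all genes. The list's summed linear signal was 6630 in PRP1cl11_VII, 4232 in Clone_57 and 4177 in Clone_194. After a new quantile normalization 1 retinoid gene was separated and lower. Of 34 xenobiotic enzymes 5 were separated, all higher. The sulfotransferase Sult1d1 read 3.64 in the ungrafted clone, 5.51 in Clone_57 and 5.93 in Clone_194, from a level not shown to be above background, Mgst1 and Sult1a1 differed by 1.64 and 1.5, and Cyp26b1 and Gstm1 (1.49) complete the count.

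Of 27 stress and p53 response genes 2 were separated and higher and 1 lower, against 0.882% and 1.08% of all genes. Nupr1, a stress-induced chromatin protein, read 5.47 and 5.74 on the ungrafted arrays, 7.56 and 7.69 in Clone_57, and 8.68 and 8.84 in Clone_194. Ddit4, an inhibitor of mTOR, was higher by 1.08, and Atf3, an immediate early factor, differed by -1.43. Of 19 hypoxia response genes, Epas1 (1.35) and the prolyl hydroxylase Egln3 (1.33) were separated, both higher, against 0.882% of all genes. Of 35 cell cycle and DNA replication genes 0 were separated, which in a list of this size is near the shares of all genes. Their median difference from the ungrafted clone was 0.33 in Clone_57 and 0.00 in Clone_194. Of 22 Hox genes, which mark position along the body axis, 1 was separated and higher, against 0.882% of all genes. This was Hoxa7, which read 5.41 and 5.54 on the ungrafted arrays, 6.69 and 6.68 in Clone_57, and 6.95 and 7.19 in Clone_194.

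**Figure D4:**
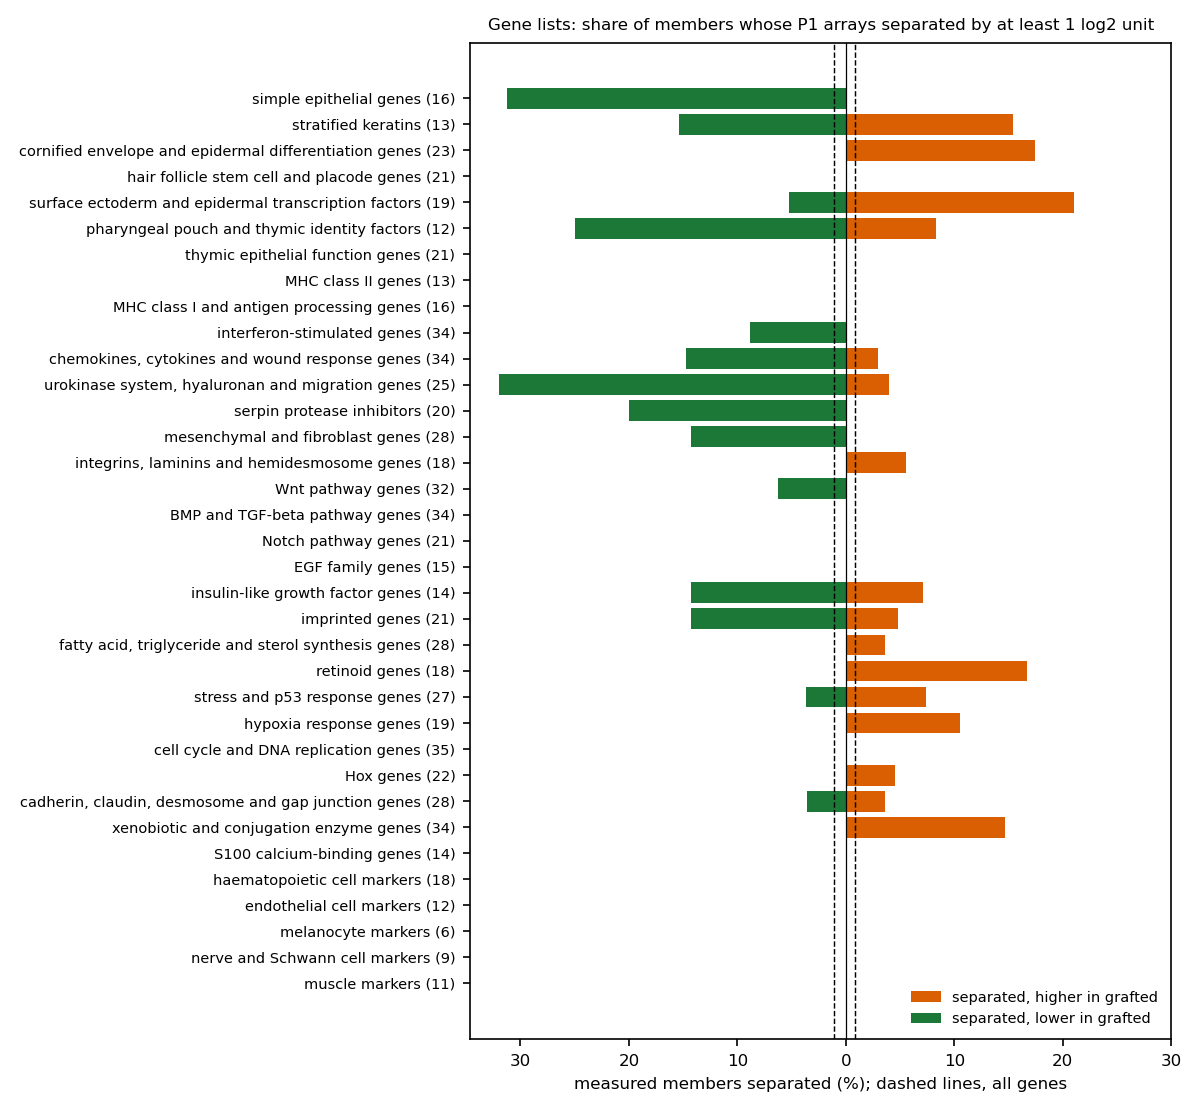
Share of the measured members of each of 35 gene lists (number in brackets) that were separated between grafted and ungrafted P1 clones (x axis, percent; orange right, higher; green left, lower), with dashed lines at the shares of all 14506 genes, 0.882% and 1.08%. Simple epithelial genes and urokinase, hyaluronan and migration genes have the longest bars to the left, and several lists have no bar.

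The same difference could be set beside that of the other donor stages, whose ungrafted and grafted cultures are separate from those of P1. Of the 128 higher genes, 110 were also higher in grafted E16 cultures, 109 in grafted 4-month cultures and 98 (76.56%) in both. Of the 156 lower genes, 143 were lower at E16, 134 at 4 months and 123 (78.85%) in both. Over all 14506 genes the sign matched that of P1 in 60.62% at E16 and 62.37% at 4 months. These all-gene shares are for single stages, pool both directions and include genes of small difference. A difference of at least 1 log2 unit at both other stages was reached by 38 of the higher and 50 of the lower genes. No share over all genes is given for that count or for a match at both stages, so neither has a background here. All of these are counts over genes with no test, and the genes of 1 culture are not independent.

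For some genes the differences lay close together. Cdc42ep5 differed by -3.97 at P1, -3.24 at E16 and -3.45 at 4 months, and Scd by 1.77, 1.66 and 1.90. For others the values at E16 and 4 months were nearer 0. Tfap2b differed by 2.86 at P1, 0.46 at E16 and -0.10 at 4 months. Slc47a1 differed by -3.35, -0.76 and -0.06, and Cdc42ep2 by -1.73, -0.26 and 0.30.

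**Figure D5:**
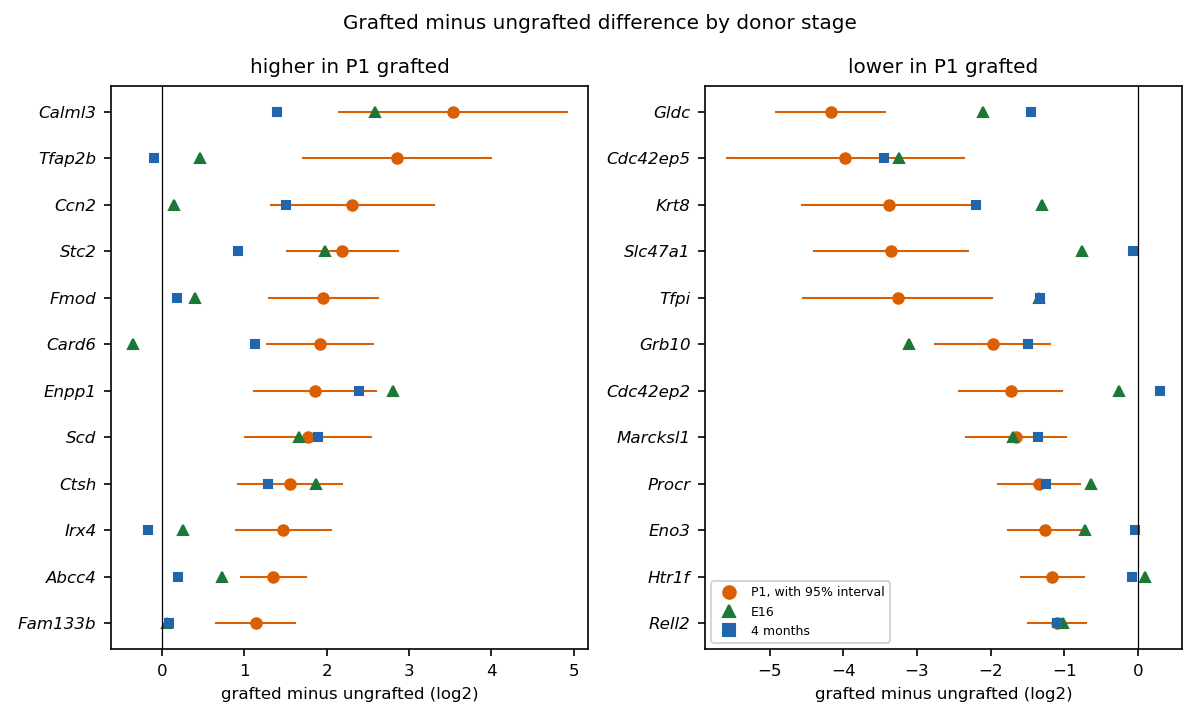
Grafted minus ungrafted difference (x axis, log2) at P1 (orange dots, with the 95% interval of the limma fit), E16 (green triangles) and 4 months (blue squares) for the 24 probe sets named by the rule. Cdc42ep5, Scd and Rell2 have similar differences at all stages, and Tfap2b, Slc47a1, Cdc42ep2 and Htr1f have triangles and squares near 0.

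Whether the P1 difference differed from the mean of the E16 and 4-month differences was tested directly, and limma called 0 of 15310 probe sets (0%), with 334 at an unadjusted p under 0.05 and a smallest adjusted p of 0.401. With arrays as the unit and the culture as a random block the count was 25, and against 4 months alone it was 4. It was 3 without PRP4mo_bulk and 1 without PRP4mo_Cl09 or Clone_907. The 6 probe sets of smallest p were Nts, Krt12, Gldc, Slc47a1, Fezf1 and Nap1l2. Nts, the neuropeptide neurotensin, read 3.78 in the ungrafted clone, 3.08 in Clone_57 and 3.02 in Clone_194, all under 4, while it differed by -2.13 at E16 and -3.59 at 4 months. The P1 difference minus that of the other stages was -2.40 ± 0.40 (SE) for Gldc and -2.94 ± 0.56 for Slc47a1. Krt12 was higher after grafting at P1 and E16 (0.27) and lower at 4 months (-2.60). Fezf1, a zinc-finger repressor, differed by 2.82 at 4 months, 0.06 at E16 and -0.11 at P1, and Nap1l2 read under 4 on all 6 P1 arrays.

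The level of the ungrafted P1 clone enters every P1 difference. It lay beyond all 3 other ungrafted thymic cultures, on the side away from the grafted clones, for 32 of the 128 higher genes (25.0%) and 40 of the 156 lower ones (25.64%). The shares of all genes whose ungrafted P1 level lay below or above those 3 cultures were 22.71% and 24.09%. Gldc, Slc47a1, Cdc42ep2, Tfpi, Eno3 and Htr1f were such cases among the lower genes of smallest p. For Card6 and Gata3, which were higher, the ungrafted P1 clone was lower than those cultures.

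Between the grafted clones, limma called 0 of 15310 probe sets (0%) for Clone_194 against Clone_57, with 146 at an unadjusted p under 0.05, and 1 was called with arrays as the unit and the culture as a random block. With 1 culture each the spread came from other groups, with 5 residual degrees of freedom. The 6 probe sets of smallest p were Herpud1, Tlx1, LOC100361261, Cacna2d1, Tmem116 and Nppb. Nppb, the precursor of brain natriuretic peptide, read 9.77 and 9.96 on the ungrafted arrays, 9.21 and 9.35 in Clone_57, and 7.28 and 7.24 in Clone_194, so Clone_57 was near the ungrafted clone and Clone_194 about 2 log2 units lower. Tlx1, a homeobox factor of spleen development, read 4.8 and 4.65 on the ungrafted arrays, 4.58 and 4.77 in Clone_57, and 6.33 and 6.25 in Clone_194. Herpud1, a protein of the endoplasmic reticulum stress response, read 8.47 in the ungrafted clone, 8.23 in Clone_57 and 9.39 in Clone_194, and Cacna2d1, a calcium channel subunit, was above 4 in Clone_194 alone (4.87). Ocm, the calcium-binding protein oncomodulin, was higher in both grafted clones and read 6.78 and 6.78 on the ungrafted arrays, 9.92 and 9.74 in Clone_57, and 10.98 and 11.01 in Clone_194, with Clone_194 above Clone_57 by more than 1 log2 unit.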

How the data were processed

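RNA of 16 rat epithelial cultures was measured on Affymetrix arrays, 2 per culture. Per the submitters' processing notes, the authors ran RMA in Affymetrix Expression Console, and the deposited table holds the resulting log2 signals. Software version and annotation release are not given in the sources used here. RMA fits the probe signals of arrays to a common distribution, so a shift of all genes cannot be read from its values. The deposited array medians still ran from 5.29 to 5.78, and the cause of that spread was not tested. RMA also compresses low signals, so levels under 4 were not taken as above background, a bound set with the values in view. Of 29215 probe sets, 15310 carried exactly 1 gene symbol in the platform annotation (14506 genes), 323 several and 13582 none. Symbols came from that annotation, which can be old.

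Arrays were averaged per culture. The tests used limma 3.58.1 (R 4.3.3, lmFit and eBayes) on all 16 cultures in 8 groups of tissue, donor stage and grafting, with Benjamini-Hochberg adjustment over 15310 probe sets and a threshold of 0.05. Clone_194 and Clone_57 were compared in a fit with 11 groups. An array has no count depth, and the number of cultures limits the precision. Named genes were the 12 probe sets of largest difference each way past the threshold, filled by separated ones in order of p, the 6 of smallest p in the other comparisons, up to 3 separated members of each list and a panel of 24 genes given whatever their values, of which Krt5 and Mki67 are not analysed here. The cultures, the lists and the panel were chosen with earlier results of these data known, so a list's count is not independent evidence. Scripts were tested on simulated data. Alternatives covered the culture as a random block, array centring, a new quantile normalization, a filter on dim probe sets, the probe sets and cultures used, and leaving out each culture or P1 array. Those for the separation of arrays were chosen after seeing the data.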

Additional observations from a re-analysis of the deposited data

How the results depend on the processing

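The count of probe sets called for grafted against ungrafted P1 clones, 1 as reported, was 219 with the culture as a random block, 209 with the array number as a replicate block too, 5 with dim probe sets removed, 14 over all deposited probe sets, 3 with thymic cultures only, 9 with clonal cultures only, 224 with the 3 P1 cultures only, 1719 with the 6 P1 arrays as if independent, and, with 11 groups, 2, or 0 for Clone_57 alone and 2 for Clone_194 alone. It was 1 after centring, quantile normalization, averaging of probe sets, and with trended or robust eBayes, and 1 to 10 with a culture or array left out. Clone_194 against Clone_57 gave 0 except for 1 with either block, and 0 with any culture left out. The P1 difference against other stages gave 0 except for 25 and 17 with the blocks, 2 over all probe sets, 4 against 4 months alone and 0 to 3 with a culture left out, and could not be fitted with clonal cultures only. Deviations of same-numbered arrays correlated at -0.04 to 0.20 between P1 cultures. Over 120 pairs of cultures these correlations ran from -0.635 to 0.574, with a median of -0.01, and 23 were over 0.1. Apart from the fit with the array number as a block, an effect of array number was not tested. The 293 separated probe sets became 56 at a minimum of 2 log2 units and 288 to 539 with a culture or array left out. Krt14 (-0.07) turned to 0.0012 with Clone_57 alone and ran from -0.1392 to 0.0012 with a culture or array left out, and Foxn1 (0.13) ran from -0.0118, without the second ungrafted array, to 0.2721. Of the other values of named genes, 2814 kept direction and side of the threshold, 281 passed it and 1 (Gldc, at -3.90, Clone_57 alone in the fit with 11 groups) lost it. Of the counts of separated list members, 763 stayed within 1.5 times and 77 did not. The causes were not tested. The number of cultures limits all tests, and signals near background limit the size of differences.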

Other observations

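Several of the widest separations fell outside the lists. The genes named here were picked after their values were seen, none passed the test, and their differences are descriptions. Rgs4, a regulator that shortens G protein signals, had the largest difference of any gene on the lower side and read 9.96 and 9.97 on the ungrafted arrays, 5.25 and 5.18 in Clone_57, and 5.06 and 4.76 in Clone_194. The related Rgs2 read 10.73 in the ungrafted clone, 7.43 in Clone_57 and 7.36 in Clone_194. Chrm3, a muscarinic acetylcholine receptor, read 7.57 in the ungrafted clone, 4.90 in Clone_57 and 4.84 in Clone_194, and Cxcr2, a chemokine receptor, read 8.67 in the ungrafted clone, 6.84 in Clone_57 and 4.99 in Clone_194. Prom1, a glycoprotein of membrane protrusions, differed by -2.90 at P1, -3.96 at E16 and -1.29 at 4 months. Plet1, a surface protein of early thymic epithelial progenitors, differed by -2.58 at P1, -1.11 at E16 and 2.56 at 4 months.

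On the higher side, Heph, a copper-containing ferroxidase, read 3.71 and 3.62 on the ungrafted arrays, 7.32 and 7.16 in Clone_57, and 7.27 and 7.49 in Clone_194. Moxd1, a monooxygenase-like protein, read 6.76 in the ungrafted clone, 10.44 in Clone_57 and 10.32 in Clone_194. Cdx2, a homeobox factor best known from intestinal epithelium, read 5.45 in the ungrafted clone, 8.33 in Clone_57 and 8.35 in Clone_194, and differed by 0.16 at E16 and 2.73 at 4 months. Aim2, a sensor of cytosolic DNA, read 3.71 in the ungrafted clone, 7.22 in Clone_57 and 6.71 in Clone_194, and Il36rn, an antagonist of the interleukin 36 receptor in epidermis, read 4.01 in the ungrafted clone, 5.43 in Clone_57 and 7.27 in Clone_194. Hpgd, which inactivates prostaglandins, read 3.47 in the ungrafted clone, 5.99 in Clone_57 and 6.07 in Clone_194. Hr, the hairless corepressor required for the hair cycle, read 6.32 in the ungrafted clone, 8.38 in Clone_57 and 8.73 in Clone_194. Penk, the precursor of enkephalins, was higher by 2.39 at P1, while its difference was -0.36 at E16 and -2.05 at 4 months. Where a level under 4 is given it is not shown to be above background, so the difference from it is a lower bound.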
